A study of Mus musculus with 20 samples.

Results

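The 10 genes described here serve the uptake of amino acids and iron and the making and breakdown of polyamines, and were grouped as known growth genes downstream of Myc. They are Slc7a5, Slc3a2, Slc1a5, Slc38a1 and Slc38a2 (amino acid carriers), Tfrc (the transferrin receptor) and Odc1, Srm, Sat1 and Oaz1 (polyamine metabolism), 10 of 25246 genes in the count tables, and each was found in all 20 libraries. The cells were CD8αα intraepithelial lymphocyte precursors (IELPs) from the thymus, double negative TCRαβ+ NK1.1- thymocytes left after bead depletion of CD4+ and CD8+ cells, which were sorted singly by CD122 and by ZsGreen, the reporter of T-bet in TBGR mice on a C57BL/6 background. All carried the TBGR reporter. The labels do not give the number of mice and the study writes of both a mouse and mice, so each genotype is treated as 1 sample and called 1 mouse here. A wild type TBGR mouse of 4 weeks gave 4 populations in 2 libraries each. These were T-bet- cells without CD122 (CD122-T-bet-), T-bet- cells with CD122 (CD122+T-bet-), and cells with CD122 and an intermediate (T-bet int) or high (T-bet high) level of the reporter. A TBGR C-mycfl/fl mouse of 2 weeks, with floxed alleles and no Cre, gave the same populations in 8 libraries, of which 4 held both T-bet- populations and 4 held both T-bet+ populations. A TBGR C-mycD/DCd4 mouse of 2 weeks, in which Cre driven by Cd4 deleted C-myc, gave the 2 T-bet- populations in 2 libraries each. The Cd4 promoter is active from the double positive stage on, ahead of the steps compared here, and in other T cells as well. Of 1920 sorted cells, 1413 held at least 2000 transcripts and were used, with 112 to 186 cells in each of the 10 populations by mouse.

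Proliferating T cells take up large neutral amino acids through the heterodimer of Slc7a5 (LAT1) and Slc3a2 (CD98 heavy chain), and glutamine through Slc1a5 and the sodium-coupled carriers Slc38a1 and Slc38a2. Tfrc brings iron into the cell as transferrin. Odc1, the rate-limiting enzyme of the pathway, makes putrescine, Srm turns it into spermidine, Sat1 acetylates spermidine and spermine for export or breakdown, and Oaz1 (antizyme) binds the Odc1 protein and leads it to the proteasome. Myc is a transcription factor that binds as a dimer with Max to the E-box CACGTG and to variants of it such as CACGCG, and genes of amino acid uptake and of polyamine synthesis are among its best known targets.

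The promoters of 6 members (7 windows of 300 bases, 250 before and 50 after the annotated start, 2 of them for Tfrc) were found in the RefSeq table of build GRCm38.p6, while Slc7a5, Slc1a5, Slc38a1 and Srm were not in it. No member window held CACGTG, which stood in 7.15% of 32851 windows of that length. CACGCG, or CGCGTG as the same motif reads on the other strand, stood in 4 of the 7 windows and in 9.27% of all windows. A 6-letter match to one motif cannot be a match to the other. Shown are the windows of Odc1, with 2 matches, of Tfrc, with 1 match, and of Sat1, with none, which stand, among the members with a window, for polyamine synthesis, iron uptake and polyamine breakdown. Each is written 5′ to 3′ on the strand of the gene, and capitals mark the motif. The matches lay 180 and 101 bases before the start of Odc1 and 117 bases before that of Tfrc. The Odc1 window is chr12:17544623-17544922 on the plus strand, the Tfrc window chr16:32608646-32608945 on the plus strand and the Sat1 window chrX:155216400-155216699 on the minus strand.
Odc1: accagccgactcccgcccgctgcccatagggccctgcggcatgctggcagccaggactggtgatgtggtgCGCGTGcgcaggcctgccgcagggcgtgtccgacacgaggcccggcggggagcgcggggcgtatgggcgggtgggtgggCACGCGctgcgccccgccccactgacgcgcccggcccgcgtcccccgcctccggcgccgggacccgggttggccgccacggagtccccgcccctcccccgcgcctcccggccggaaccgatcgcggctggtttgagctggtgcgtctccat
Tfrc: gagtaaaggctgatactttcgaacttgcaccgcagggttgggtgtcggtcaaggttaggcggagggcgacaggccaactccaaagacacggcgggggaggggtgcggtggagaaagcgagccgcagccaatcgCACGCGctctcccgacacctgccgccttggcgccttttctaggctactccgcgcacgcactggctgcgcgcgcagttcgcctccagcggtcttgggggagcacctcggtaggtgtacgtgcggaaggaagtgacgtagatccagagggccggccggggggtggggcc
Sat1: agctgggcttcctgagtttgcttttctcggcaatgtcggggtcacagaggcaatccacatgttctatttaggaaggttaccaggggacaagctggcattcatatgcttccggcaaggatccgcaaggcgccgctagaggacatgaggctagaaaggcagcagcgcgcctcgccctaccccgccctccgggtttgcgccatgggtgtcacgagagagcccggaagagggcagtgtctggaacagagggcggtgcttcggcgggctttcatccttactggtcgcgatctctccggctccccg
A match is a description of the letters and not a site of binding, and binding of Myc was not measured in these samples.

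The median cell of a library held 3298 to 7809.5 transcripts, counted at their 3′ end with 1 unique molecular identifier (UMI) per molecule. Levels are given as transcripts summed over the cells of a population per 1000000 transcripts of all genes (CPM), with exact 95% Poisson intervals, which cover counting error only. With 1 sample per genotype no test was possible, so a gene is said to rise or fall only where the ratio was at least 1.5-fold and the libraries of both groups did not overlap (within C-mycfl/fl libraries that held both populations, where all 4 moved the same way). Libraries of 1 mouse are not replicates of a genotype, and age, mouse and genotype cannot be told apart between the TBGR mouse and the others. Mouse and genotype cannot be told apart between the C-mycD/DCd4 and C-mycfl/fl mice either, whose populations were spread differently over libraries. In the TBGR and C-mycD/DCd4 mice each library held 1 population, so that population and library cannot be told apart. One transcript, Gm10800, whose correlated genes the study removed from its analysis, took 7.03 to 53.2% of the transcripts of a library. Its share was 42.8% in the CD122-T-bet- cells of the C-mycfl/fl mouse against 26.8% in the CD122+T-bet- cells, 31.0% and 28.1% in those of the C-mycD/DCd4 mouse, and 25.4% and 12.9% in those of the TBGR mouse. All CPM move with this share, and results are therefore also given without Gm10800 in the total, an alternative chosen after the data were seen. The libraries used 2 sets of 96 cell barcodes, no cell occurred in 2 libraries, and barcodes without a cell held 0.221 to 4.78% of the transcripts of a library.

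The sort was visible in its own genes. Il2rb, which encodes CD122, was at 2.61 to 9.88 CPM in the 3 CD122-T-bet- populations and at 222 to 515 CPM in all others, and Tbx21, which encodes T-bet, was at 0 to 6.60 CPM in T-bet- cells and at 18.8 to 165 CPM in the others. The 6 measured genes that define αβ T cells summed to 3528 to 6835 CPM. Klrb1c, which encodes NK1.1, was at 563 CPM in TBGR and at 81.5 CPM in C-mycfl/fl T-bet high cells, against 0 to 39.5 CPM in the other 8 populations, although the cells were sorted as NK1.1-. The targeted gene, Myc, had 18 and 19 transcripts in the T-bet- cells of the C-mycD/DCd4 mouse with and without CD122. Among those with CD122, it stood at 44.5 and 9.96 CPM in the C-mycD/DCd4 libraries and at 73.8, 125, 135 and 10.6 CPM in the C-mycfl/fl libraries, so that 3 of the 4 C-mycfl/fl libraries were above both and the other lay between them. In CD122-T-bet- cells it was at 16.7 and 30.01 CPM against 63.0, 14.0, 62.3 and 24.4 CPM, which overlapped. Whether the 3′ ends read here lie in the deleted part of the gene is not given in the sources used here, so that transcripts of a deleted allele may be counted.

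**Figure D1:**
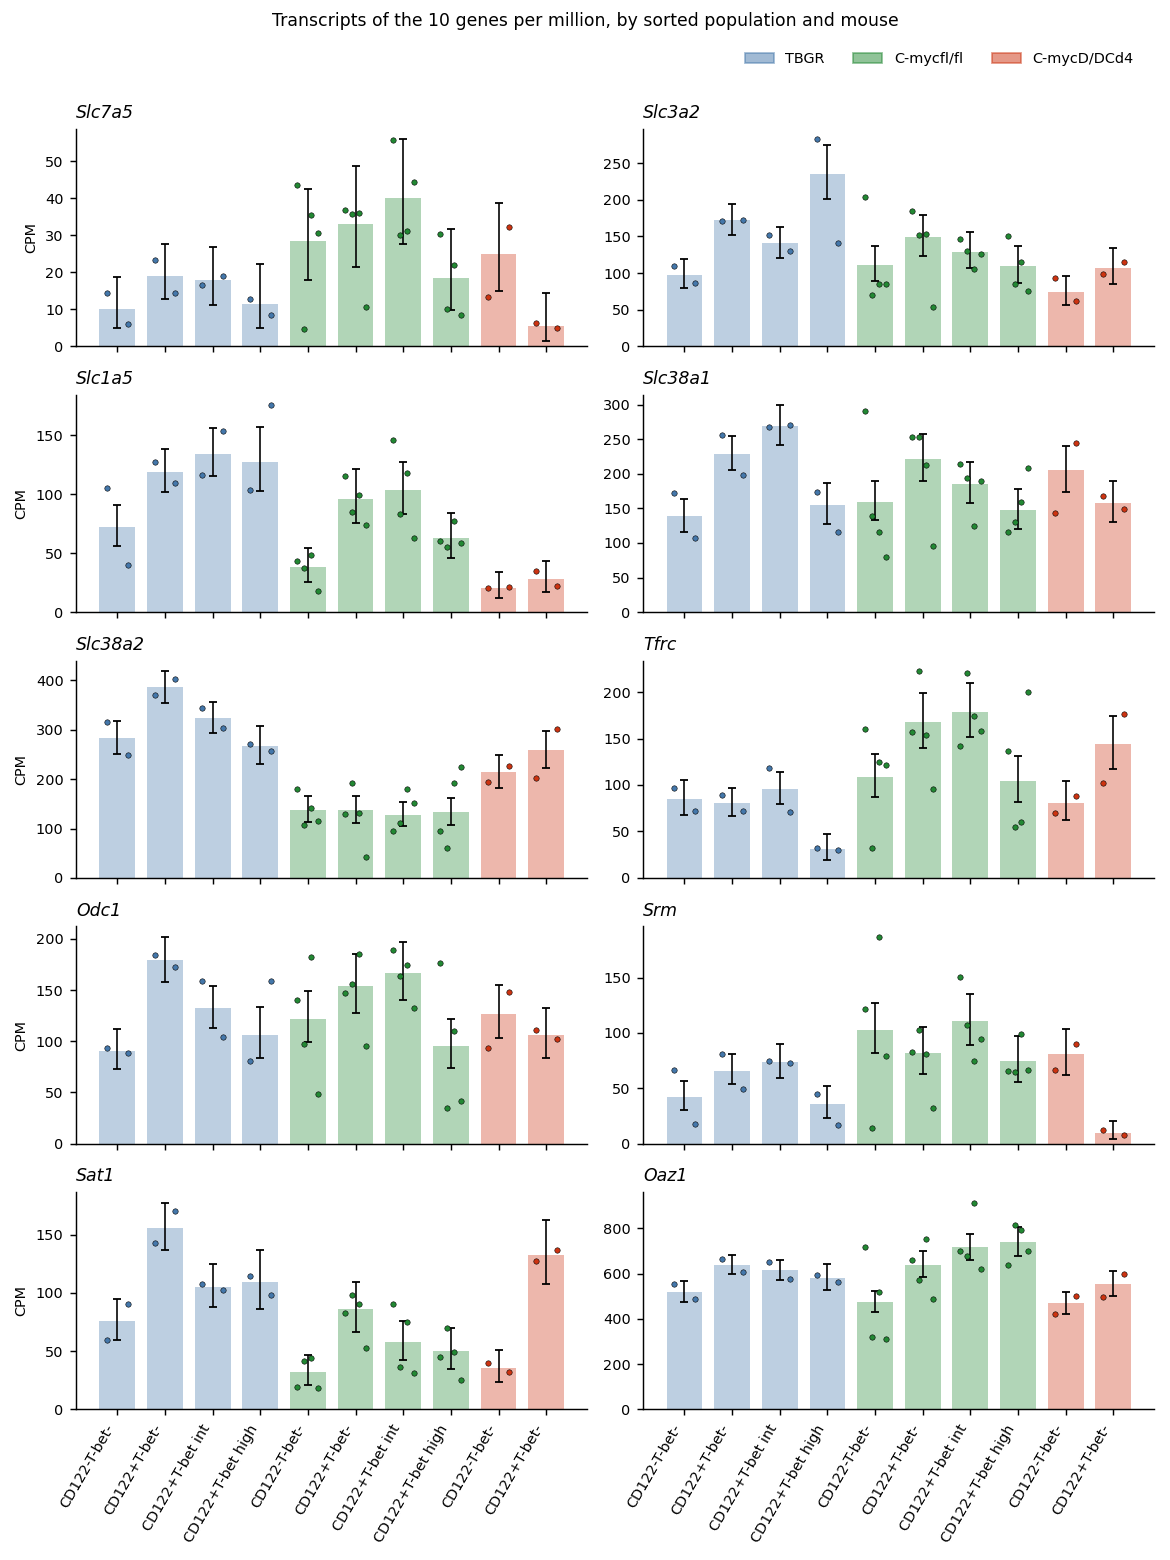
Transcripts per 1000000 (CPM, vertical axis) of each of the 10 genes in the 10 sorted populations. Bars are sums over the cells of a population, error bars exact 95% Poisson intervals, points single libraries, and colors the 3 mice. Srm stood at 9.77 CPM in the CD122+T-bet- cells of the C-mycD/DCd4 mouse and between 35.5 and 111 CPM in every other population.

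The amino acid carriers followed different orders over the 10 populations. Slc7a5 was sparse, with 4 to 34 transcripts per population, and ranged from 5.58 CPM (95% interval 1.52 to 14.3) in C-mycD/DCd4 CD122+T-bet- cells to 40.0 CPM (27.7 to 55.9) in C-mycfl/fl T-bet int cells. Its lowest 4 populations, that one and the CD122-T-bet-, T-bet high and T-bet int cells of the TBGR mouse (10.2, 11.3 and 17.8 CPM), had overlapping intervals. Its partner Slc3a2 ranged from 74.5 CPM in C-mycD/DCd4 CD122-T-bet- cells to 236 CPM in TBGR T-bet high cells, where the libraries were far apart at 282 and 141 CPM. Slc1a5 was lowest in both C-mycD/DCd4 populations, at 20.9 CPM (11.95 to 33.9) and 27.9 CPM (17.1 to 43.1), next at 38.3 CPM (26.0 to 54.3) in C-mycfl/fl CD122-T-bet- cells, and at 62.9 to 135 CPM in the other 7. The intervals of the lowest 3 overlapped, and those of both C-mycD/DCd4 populations lay below the interval of each of those 7. Slc38a1 varied least among the carriers, from 139 to 269 CPM. Slc38a2 stood at 267 to 386 CPM in the TBGR mouse, at 127 to 137 CPM in the C-mycfl/fl mouse and at 214 and 258 CPM in the C-mycD/DCd4 mouse. With Gm10800 in the total the ranges of the 3 mice did not meet, and the 4 populations of the C-mycfl/fl mouse differed among themselves by less than their intervals. Without it, Slc38a2 stood at 294 to 443 CPM in the TBGR and at 310 and 359 CPM in the C-mycD/DCd4 mouse, so that these 2 ranges met. The C-mycfl/fl mouse was then at 167 to 240 CPM.

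Tfrc was lowest in TBGR T-bet high cells (31.2 CPM, 19.6 to 47.3) and highest in C-mycfl/fl T-bet int cells (179 CPM, 151 to 209). Odc1 moved within 90.8 to 179 CPM and Oaz1 within 469 to 740 CPM, the narrowest ranges of the 10 beside Slc38a1. Srm ran from 9.77 CPM (3.93 to 20.1) to 111 CPM (89.3 to 135), the widest range, at 11.3-fold between the lowest and the highest population. Sat1 was lowest in the CD122-T-bet- cells of all 3 mice, at 32.1 CPM in the C-mycfl/fl, 35.3 CPM in the C-mycD/DCd4 and 75.5 CPM in the TBGR mouse, and its highest values were those of CD122+T-bet- cells in each mouse. It was the only member whose CD122-T-bet- cells were lowest in every mouse while its CD122+T-bet- cells were highest in every mouse. The sum of Slc7a5, Slc3a2, Slc1a5, Tfrc, Odc1 and Srm was 409 and 401 CPM in the T-bet- cells of the C-mycD/DCd4 mouse without and with CD122, 511 and 683 CPM in those of the C-mycfl/fl mouse and 398 and 637 CPM in those of the TBGR mouse. Without Gm10800 in the total, which is described above, it was 592 and 557 CPM in the C-mycD/DCd4, 894 and 932 CPM in the C-mycfl/fl and 533 and 731 CPM in the TBGR mouse, so that the intervals of the 2 populations then overlapped in both C-myc mice.

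To see which of these genes rise when IELPs gain CD122, the T-bet- cells with and without it were compared within each mouse. In the TBGR mouse, 5 of 10 members rose and none fell, where 26.7% of 9262 genes rose and 7.67% fell. The median log2 ratio of the members was 0.72 against 0.26 over all genes, so that part of the rise was shared by all genes. Odc1 went from 93.0 and 88.6 CPM in the libraries of CD122-T-bet- cells to 184 and 173 CPM in those of CD122+T-bet- cells, a log2 ratio of 0.97 (95% interval 0.63 to 1.34). Sat1, which works against it, went from 59.95 and 90.6 CPM to 143 and 170 CPM, a log2 ratio of 1.04 (0.66 to 1.44). Odc1, of synthesis, and Sat1, of breakdown, thus rose at the same step. Among cells with no transcript of the proliferation genes named below, Odc1 was not called. It was at 121 CPM with and 98.0 CPM without CD122 there, a log2 ratio of 0.31, and Sat1 at 177 and 72.9 CPM. Slc3a2 rose as well (log2 ratio 0.81), as did Slc1a5 (0.71) and Slc38a1 (0.72), whereas Slc7a5 (0.86) and Srm (0.65) had overlapping libraries. Tfrc had a log2 ratio of -0.07 (-0.48 to 0.36). Without Gm10800 in the total, the median of all genes was 0.04 and 3 of the 5 calls remained, those of Slc3a2 (0.59), Odc1 (0.75) and Sat1 (0.82). Of all 9261 genes, 1648 then rose. Leaving out the first library of CD122-T-bet- cells raised the count to 8, with Slc7a5, Slc38a2 and Srm added. Leaving out the second lowered it to 3, with Slc1a5 and Slc38a1 lost. Over all genes, 3323 of 8704 rose without the first library and 2316 of 8750 without the second. Slc1a5 was at 105 and 40.3 CPM in these libraries and Srm at 66.2 and 18.1 CPM.

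**Figure D2:**
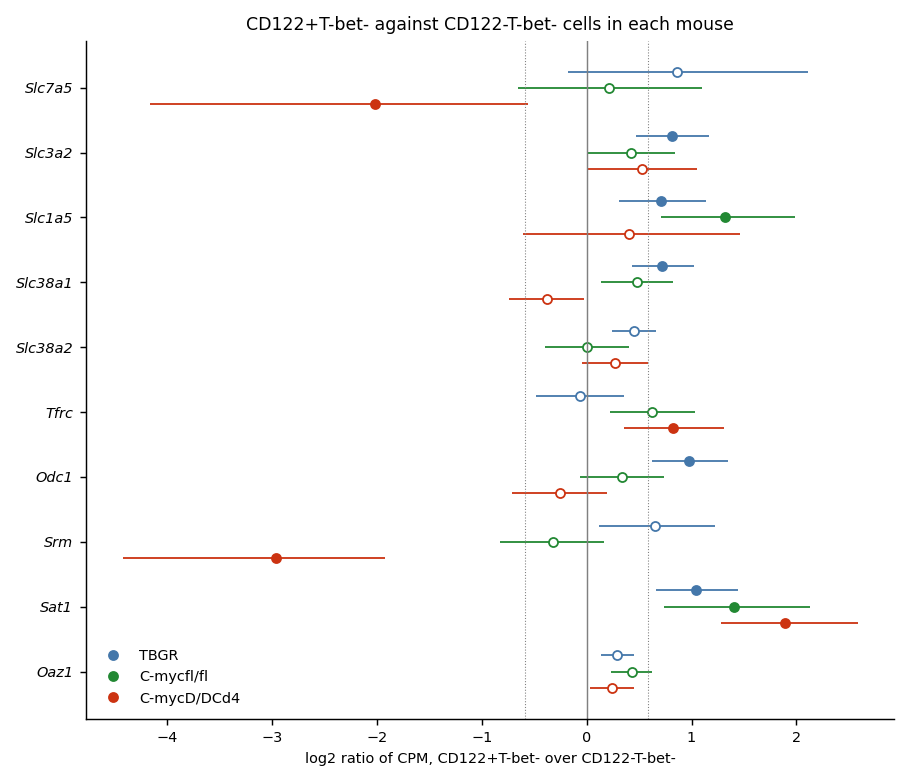
Log2 ratio of CPM in T-bet- cells with CD122 over those without (horizontal axis) of each gene in each mouse, with 95% counting intervals. Filled points passed the rule of 1.5-fold (dotted lines) without overlap of libraries. Sat1 rose in all 3 mice, and Slc7a5 and Srm fell in the C-mycD/DCd4 mouse.

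In the C-mycfl/fl mouse, where each of the 4 libraries held both populations, 2 members rose and none fell, while 21.3% of 6790 genes rose and 4.15% fell, with a median over all genes of 0.48. Slc1a5 was at 43.6, 37.2, 48.9 and 18.3 CPM in CD122-T-bet- cells and at 115, 84.6, 99.2 and 74.3 CPM in those with CD122 from the same libraries, a log2 ratio of 1.32 (0.71 to 1.99). Every library was higher on the CD122+T-bet- side, and the groups did not overlap. Sat1 went from 19.4, 41.9, 44.5 and 18.3 CPM to 83.0, 98.0, 90.2 and 53.0 CPM, a log2 ratio of 1.40 (0.74 to 2.13). Without Gm10800 both were still called (0.96 and 1.05), with a median over all genes of 0.13. Without the first library 4 members rose, with Slc38a1 (0.87) and Oaz1 (0.69) added, where 1864 of 5610 genes rose. Srm had a log2 ratio of -0.32, and its CD122-T-bet- libraries ran from 14.0 to 187 CPM.

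In the C-mycD/DCd4 mouse, 2 members rose and 2 fell, where 23.9% of 7425 genes rose and 14.6% fell and the median over all genes was 0.13. Srm was at 66.9 and 90.0 CPM in CD122-T-bet- cells and at 12.7 and 7.47 CPM in CD122+T-bet- cells, a log2 ratio of -2.96 (-4.42 to -1.92). Slc7a5 went from 13.4 and 32.2 CPM to 6.35 and 4.98 CPM, a ratio of -2.02 (-4.17 to -0.56) on 19 and 4 transcripts. Sat1 rose from 40.1 and 32.2 CPM to 127 and 137 CPM (1.89, 1.28 to 2.58), and Tfrc from 70.3 and 87.9 CPM to 102 and 177 CPM (0.82, 0.36 to 1.31). All 4 were called without Gm10800 as well. Among cells with no transcript of the proliferation genes named below, however, both falls were lost, with Slc7a5 at a log2 ratio of -0.07 on 4 against 2 transcripts and Srm at -0.92 with overlapping libraries. In those cells 6 members rose (Slc3a2, Slc38a2, Tfrc, Odc1, Sat1 and Oaz1) and none fell. Over all genes, 1982 of 4984 rose there and 225 fell, so that the change was not particular to the members. With each cell thinned to 2000 transcripts neither fall was called (Srm -1.38 and Slc7a5 -1.24), and that of Slc7a5 was not called without the second library of CD122-T-bet- cells (-1.26). Over all cells the acetylating enzyme and the spermidine synthase moved in opposite directions, and both groups of libraries were apart for each. The log2 ratio of this step in the C-mycD/DCd4 mouse less that in the C-mycfl/fl mouse was -2.64 for Srm, -2.23 for Slc7a5, -0.91 for Slc1a5, -0.85 for Slc38a1 and -0.59 for Odc1, while Sat1 was at 0.49 and the other 4 lay between -0.19 and 0.27. These differences set a step between libraries against a step within libraries and were not tested. At this step the summed CPM of 5 proliferation genes (Mki67, Top2a, Cdk1, Ccnb2 and Birc5) went from 2119 to 180 in the C-mycD/DCd4 mouse, from 773 to 1286 in the C-mycfl/fl mouse and from 42.8 to 793 in the TBGR mouse. In the C-mycD/DCd4 mouse the list of dissociation stress went from 361 to 1005 CPM, the myeloid list from 48.3 to 315 CPM and the B cell list from 135 to 334 CPM, and their part in the rise of Sat1 was not tested.

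Gain of T-bet was compared next. Between T-bet- cells with CD122 and T-bet int cells of the TBGR mouse no member rose or fell, while 9.9% of 9461 genes rose and 15.1% fell with a median of -0.02. No p-value was computed for any gene. Sat1 came closest, at 143 and 170 CPM against 108 and 103 CPM (log2 ratio -0.56), and fell past 1.5-fold without Gm10800 (-0.65). Leaving out the first library of CD122+T-bet- cells gave 1 member that fell, and leaving out the first of T-bet int cells gave 2. Over all genes, 1510 of 8633 and 1575 of 8902 fell in these settings. From T-bet int to T-bet high cells of the same mouse 4 members fell and none rose, where 22.3% of 8564 genes fell and 14.1% rose. Tfrc was at 118 and 71.2 CPM in T-bet int and at 31.8 and 29.98 CPM in T-bet high cells, a log2 ratio of -1.58 (-2.33 to -0.95). Srm went from 74.3 and 72.7 CPM to 44.6 and 17.1 CPM (-1.03), Slc38a1 from 268 and 270 CPM to 174 and 116 CPM (-0.80) and Slc7a5 from 16.7 and 19.0 CPM to 12.7 and 8.57 CPM (-0.59). The call of Slc7a5 rests on 23 and 8 transcripts, its interval included 0 (-2.02 to 0.56), and it was not called without Gm10800 (-0.57). The proliferation genes summed to 1570 CPM in T-bet int and 95.1 CPM in T-bet high cells. Among cells with no transcript of these genes, Srm had a log2 ratio of 0.02, and 2 members fell, where 906 of 5973 genes fell. Erythroid cells carry much Tfrc, and the 8 measured erythroid markers summed to 102 CPM in the T-bet int cells and to 2.84 to 34.3 CPM in the other 9 populations, with Klf1 at 0 in those T-bet int cells. Their part in the fall of Tfrc was not tested.

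In the C-mycfl/fl mouse 3 members fell from T-bet int to T-bet high cells and none rose, where 11.1% of 6908 genes fell and 4.37% rose with a median of -0.18. Slc7a5 was at 55.8, 30.1, 31.1 and 44.3 CPM in T-bet int and at 30.2, 10.02, 22.0 and 8.34 CPM in T-bet high cells of the same libraries (-1.07, -2.15 to -0.15). Odc1 went from 189, 164, 174 and 133 CPM to 176, 35.1, 110 and 41.7 CPM (-0.80) and Slc1a5 from 146, 83.7, 118 and 63.3 CPM to 60.5, 55.1, 77.0 and 58.4 CPM (-0.71). The first library held nearly as much Odc1 in T-bet high as in T-bet int cells, and the other 3 much less, and Odc1 was not called without Gm10800 (-0.68). Slc7a5 was the only member that fell at this step in both mice, with the call in the TBGR mouse lost without Gm10800.

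The question of which of these genes depend on C-myc was addressed by comparing C-mycD/DCd4 with C-mycfl/fl cells of the same sort. In CD122+T-bet- cells, Slc7a5, Slc1a5 and Srm fell and Slc38a2 and Sat1 rose. These are 3 of 10 members lower and 2 higher, where 8.23% of 7312 genes were lower and 20.7% higher. The median of the members was -0.48 against 0.18 over all genes. Srm was at 12.7 and 7.47 CPM in the C-mycD/DCd4 libraries and at 83.0, 102, 81.2 and 31.8 CPM in the C-mycfl/fl libraries, 7 against 62 transcripts and a log2 ratio of -2.98 (-4.44 to -1.94). Slc7a5 was at 6.35 and 4.98 CPM against 36.9, 35.6, 36.1 and 10.6 CPM, 4 against 25 transcripts and a log2 ratio of -2.42 (-4.55 to -1.03). In both genes the fourth C-mycfl/fl library was far below the other 3 yet above both C-mycD/DCd4 libraries. That library also had the highest share of Gm10800 among the CD122+T-bet- cells (49.1%) and the lowest Myc. Slc1a5 was at 34.9 and 22.4 CPM against 115, 84.6, 99.2 and 74.3 CPM (-1.76, -2.58 to -1.06), where all 4 C-mycfl/fl libraries were at least as high as 74.3 CPM. Slc38a2 was at 203 and 301 CPM against 129, 191, 131 and 42.4 CPM (0.91, 0.56 to 1.27), and Sat1 at 127 and 137 CPM against 83.0, 98.0, 90.2 and 53.0 CPM (0.62, 0.16 to 1.11).

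**Figure D3:**
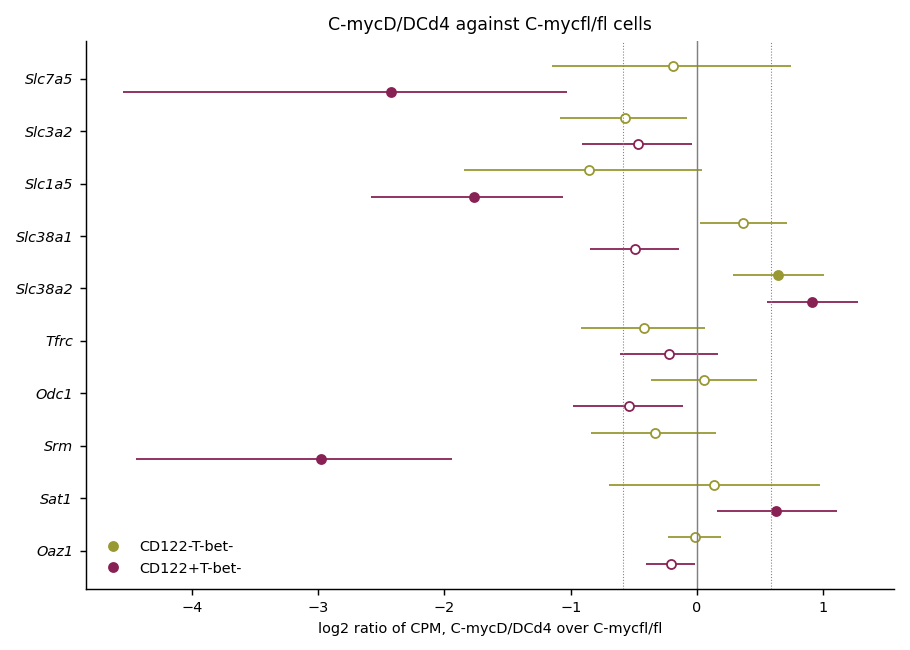
Log2 ratio of CPM in C-mycD/DCd4 over C-mycfl/fl cells (horizontal axis) of each gene in T-bet- cells without and with CD122, with 95% counting intervals. Filled points passed the rule of 1.5-fold (dotted lines) without overlap of libraries. Srm, Slc7a5 and Slc1a5 lie at -2.98, -2.42 and -1.76 in CD122+T-bet- cells.

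The other 5 members were not called in CD122+T-bet- cells. Slc3a2, the partner of Slc7a5, had a log2 ratio of -0.47 with overlapping libraries, Slc38a1 of -0.49, Odc1 of -0.54, Tfrc of -0.22 and Oaz1 of -0.21. Odc1, often used as a gauge of Myc activity, was at 111 and 102 CPM against 148, 156, 185 and 95.5 CPM, so that only the fourth C-mycfl/fl library lay under both C-mycD/DCd4 libraries. Of 19 alternatives, Srm and Slc1a5 were called in 18, Slc7a5 and Slc38a2 in 16 and Sat1 in 12. Without the second C-mycD/DCd4 library of CD122+T-bet- cells 3 members were called, all of them lower. Over all genes, 909 of 6094 were then lower and 1421 higher. Without the fourth C-mycfl/fl library 7 were called, with Slc3a2 (-0.60), Slc38a1 (-0.60) and Odc1 (-0.62) lower as well and Sat1 (0.55) no longer called. Over all genes, 1297 of 7172 were lower in that setting and 1523 higher. All 5 calls stood without Gm10800 (Srm -2.95, Slc7a5 -2.40, Slc1a5 -1.74, Slc38a2 0.93 and Sat1 0.65). The heat shock and early response genes set as a list of dissociation stress summed to 1005 CPM in the C-mycD/DCd4 and to 471 CPM in the C-mycfl/fl cells, and the B cell and myeloid lists to 334 against 92.4 CPM and 315 against 194 CPM. The γδ T cell list summed to 1061 against 397 CPM and the list of double positive thymocytes to 184 against 92.4 CPM. The part of these lists in the rise of Slc38a2 and Sat1 was not tested.

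Shares of cells gave the same picture for Srm. At least 1 transcript of Srm was counted in 4.38% of 137 C-mycD/DCd4 cells (exact 95% binomial interval 1.62 to 9.29%) and in 32.8% of 122 C-mycfl/fl cells (24.6 to 41.9%). With each cell thinned to 2000 transcripts the shares were 1.46% and 18.9%. Slc7a5 was counted in 2.19% and 16.4% of these cells (0.73% and 7.38% after thinning), and Slc1a5 in 12.4% and 37.7% (5.11% and 18.0%). Sat1 went the other way, with 46.7% and 36.9% (21.9% and 13.9% after thinning), and these intervals overlapped. For comparison, Il2rb was counted in 1.56 to 5.83% of the CD122-T-bet- cells, which were sorted without its protein. Median depths there were 4238.5 to 5890.5 transcripts. Whether these Il2rb transcripts are background or expression was not measured, so they set no floor for other genes. The median depth was 4921 transcripts in the C-mycD/DCd4 and 5984 in the C-mycfl/fl CD122+T-bet- cells. The shares of Srm and Slc7a5 in C-mycD/DCd4 CD122+T-bet- cells lay within the range of Il2rb. Whether these few transcripts are expression or background cannot be told.

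In CD122-T-bet- cells, 1 member rose and none fell between the genotypes, where 22.2% of 6893 genes were higher and 1.58% lower. The median over all genes was 0.45, and 0.18 without Gm10800. Slc38a2 was at 194 and 227 CPM in the C-mycD/DCd4 and at 179, 107, 142 and 116 CPM in the C-mycfl/fl libraries (0.64, 0.29 to 1.01), which is 0.19 relative to the median of all genes. Without Gm10800, Slc38a2 was not called (0.37), and Slc1a5 fell (-1.12), with 20.1 and 21.4 CPM against 43.6, 37.2, 48.9 and 18.3 CPM in the full total. Srm had a log2 ratio of -0.34 (-0.84 to 0.15) and Slc7a5 of -0.19 (-1.15 to 0.75). Their C-mycfl/fl libraries were far apart, with Srm at 121, 14.0, 187 and 79.3 CPM. The second and the fourth of these libraries had the largest share of Gm10800 (50.4% and 53.2%). Without both, Slc7a5, Slc1a5, Tfrc and Srm fell in C-mycD/DCd4 cells, 4 members in place of 1 and in the other direction. Over all genes, 421 of 6205 were then lower and 1361 higher. Leaving out single libraries gave 0 to 2 calls, with 0 without the second C-mycD/DCd4 library and 2 without the first of them or without the first or the fourth C-mycfl/fl library. Without the second C-mycD/DCd4 library 1593 of 5362 genes were higher and 266 lower. Without the first, 2251 of 6079 were higher and 162 lower.

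Since the sorted populations differed in how many cells were dividing, the members were also summed apart in cells with and without a transcript of the 5 proliferation genes. Such transcripts were found in 64 of 128 CD122-T-bet- and 31 of 137 CD122+T-bet- cells of the C-mycD/DCd4 mouse, and in 45 of 120 and 85 of 122 cells of the C-mycfl/fl mouse. Most members were higher in the cells with them. Tfrc was higher in 10 of 10 populations (median log2 ratio 0.72), Slc7a5 (1.59), Odc1 (0.88) and Oaz1 (0.32) in 9, and Srm (0.57) and Slc1a5 (0.21) in 8. Slc38a1 (0.46) and Slc3a2 (0.14) were higher in 7, Slc38a2 in 4 (-0.08) and Sat1 in only 2 (-0.36). Cells with such transcripts were also deeper, for example 7080 against 5360 transcripts at the median in C-mycfl/fl CD122-T-bet- cells, which the CPM scale takes into account but the split does not. In these C-mycfl/fl CD122-T-bet- cells Srm was at 203 CPM with and 9.49 CPM without proliferation transcripts, and Odc1 at 211 and 40.3 CPM. In the same population of the C-mycD/DCd4 mouse Srm was at 113 and 22.1 CPM, Tfrc at 111 and 25.8 CPM and Odc1 at 170 and 47.8 CPM. In the TBGR CD122-T-bet- cells, with 19 such cells, Odc1 was at 48.8 CPM with and 98.0 CPM without proliferation transcripts. Srm was at 34.9 and 43.0 CPM there, and the intervals of both ratios included 0. Among CD122-T-bet- cells, higher levels of both in dividing cells were thus seen in the C-myc mice only. Other members moved with the split too, with Oaz1 at 685 and 282 CPM in these C-mycfl/fl cells, while Sat1 was at 25.7 and 38.0 CPM. The split was not set against all genes or taken without Gm10800, so the difference is not read as particular to Srm and Odc1. In TBGR CD122+T-bet- cells Odc1 was at 201 CPM with and 121 CPM without such transcripts (log2 ratio 0.73, 0.28 to 1.22). Srm was at 74.3 and 44.3 CPM (0.71, -0.007 to 1.57). In TBGR T-bet int cells Odc1 was at 141 and 92.5 CPM (0.58, -0.04 to 1.33) and Srm at 82.5 and 33.6 CPM (1.21, 0.25 to 2.55).

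**Figure D4:**
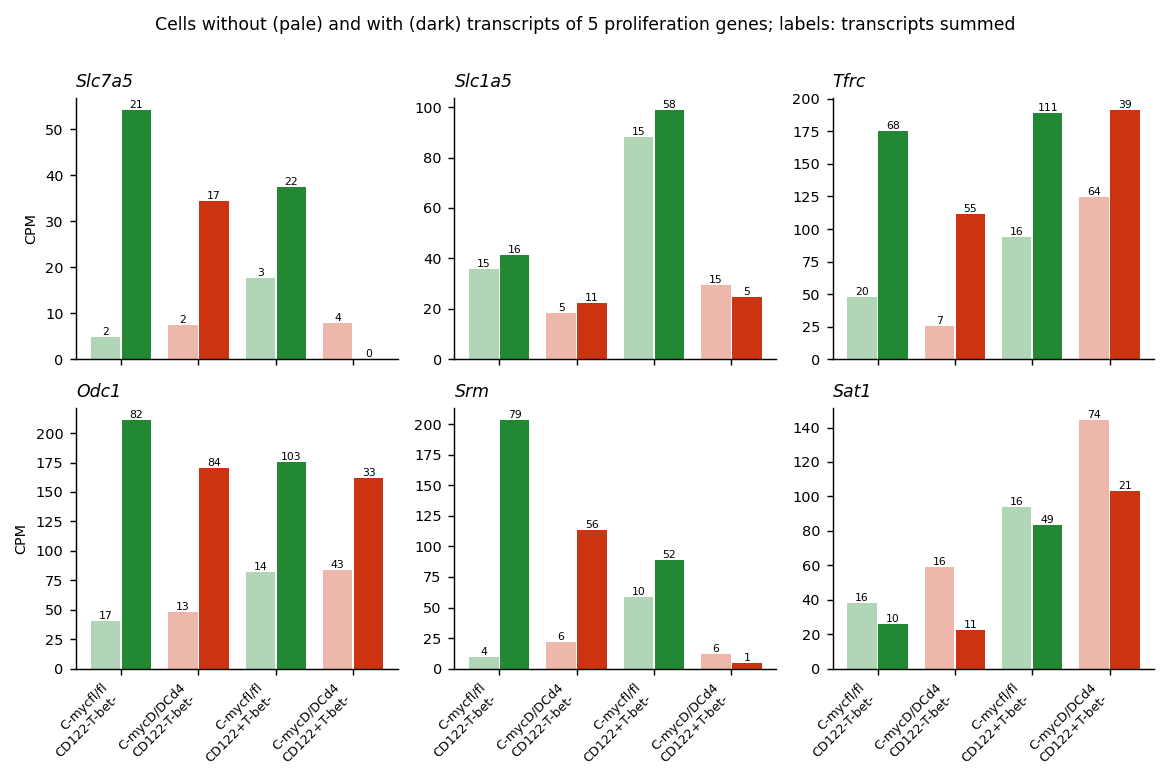
CPM (vertical axis) of 6 genes in T-bet- cells without (pale bars) and with (dark bars) a transcript of 5 proliferation genes, by genotype and population. Numbers above the bars are transcripts summed. In CD122+T-bet- cells with such transcripts, Srm had 1 transcript in the C-mycD/DCd4 and 52 in the C-mycfl/fl cells.

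In CD122+T-bet- cells the genes parted. Among the 31 C-mycD/DCd4 cells with proliferation transcripts, Srm had 1 transcript (4.90 CPM), against 52 transcripts (88.6 CPM) in 85 C-mycfl/fl cells, a log2 ratio of -3.60 (-9.51 to -1.63). Slc7a5 had 0 transcripts against 22 (37.5 CPM), which is at least 2.55-fold lower when 0 is set to a floor of 3 transcripts over the group (14.7 CPM), and Slc1a5 had 5 against 58 (24.5 and 98.8 CPM). For all 3 genes the C-mycD/DCd4 libraries lay below the C-mycfl/fl libraries. For Sat1 they lay above, at less than 1.5-fold (log2 ratio 0.32, -0.51 to 1.07). The share over all genes was not counted in cells with proliferation transcripts, so these are descriptions of single genes. Odc1 and Tfrc did not share this pattern. Odc1 was at 162 CPM in the C-mycD/DCd4 and 175 CPM in the C-mycfl/fl cells (log2 ratio -0.10, -0.73 to 0.46), and Tfrc at 191 and 189 CPM (0.03, -0.55 to 0.56). Among cells without proliferation transcripts, Srm was at 11.7 against 58.8 CPM (-2.28, -4.07 to -0.73), Slc1a5 at 29.3 against 88.1 CPM (-1.59) and Slc7a5 at 7.80 against 17.6 CPM (-1.23), each with overlapping libraries, on 37 C-mycfl/fl cells. Slc38a2 was the only member called there, at 306 against 141 CPM (1.09, 0.49 to 1.80), while in cells with proliferation transcripts it was at 137 against 136 CPM (0.03, -0.66 to 0.65). Among cells without these transcripts, 1092 of 4625 genes were higher and 47 lower.

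Other genes of these pathways were taken from 5 lists. The list of amino acid shortage and synthesis, with the enzymes of serine synthesis and of the folate cycle, had 12 measured genes in the comparison of C-mycD/DCd4 with C-mycfl/fl CD122+T-bet- cells. Of these, 7 fell (Psat1, Phgdh, Psph, Shmt1, Shmt2, Mthfd2 and Got1) and 1, the stress factor Ddit3, rose, with a median of -1.55 against 0.18 over all genes. Over all 7312 genes of this comparison, 8.23% fell and 20.7% rose. The 5 proliferation genes summed to 180 CPM in these C-mycD/DCd4 and to 1286 CPM in these C-mycfl/fl cells. No split of the list by their transcripts is given, here or at the steps below, and the part of dividing cells in its falls was not tested. Psat1, which makes phosphoserine, was at 46.1 against 271 CPM (-2.54, -3.13 to -2.02), and Shmt2, the mitochondrial serine hydroxymethyltransferase, at 68.4 against 201 CPM (-1.54). Atf4, the transcription factor of the shortage response, had a log2 ratio of 0.37 and was not called. In the list of polyamines and hypusine, 1 of 13 genes fell and 1 rose, no more than those shares, with a median of -0.29. The one that fell was Eif5a, the translation factor that carries hypusine, an amino acid made from spermidine, at 572 against 1579 CPM (-1.46, -1.63 to -1.30). Reads that fit several loci had been discarded, so that genes with processed copies in the genome, of which Eif5a and Oaz1 have some, may be undercounted. Of 16 genes of iron handling 1 fell, the iron chaperone Pcbp1 (220 against 484.5 CPM, -1.13), and 2 rose (Slc25a28 and Iscu), again no more than those shares. Of 7 other plasma membrane amino acid transporters and 14 genes of amino acid sensing and mTORC1, none passed the rule in either direction, and their medians were 0.08 and -0.18.

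**Figure D5:**
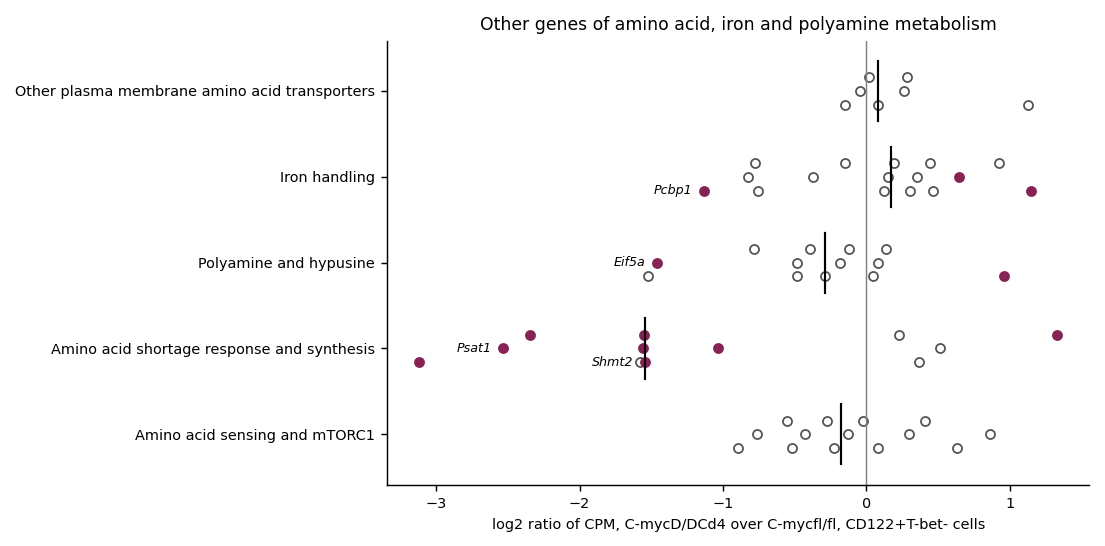
Log2 ratio of CPM in C-mycD/DCd4 over C-mycfl/fl CD122+T-bet- cells (horizontal axis) of the genes of 5 pathway lists. Each point is a gene, filled where it passed the rule of 1.5-fold without overlap of libraries, and black lines mark the median of a list. The list of amino acid shortage and synthesis has its median at -1.55, the others between -0.29 and 0.17.

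In CD122-T-bet- cells of the same genotypes, 1 of 10 genes of amino acid shortage and synthesis fell (Got1) and none rose, with a median of 0.07 against 0.45 over all genes. Over all 6893 genes, 1.58% fell and 22.2% rose. At the step to CD122+T-bet- cells in the C-mycD/DCd4 mouse, 5 of 10 genes of that list fell and 3 rose. There 14.6% of 7425 genes fell and 23.9% rose. Phgdh, the first enzyme of serine synthesis, went from 121 to 20.9 CPM (-2.50) and Psat1 from 152 to 46.1 CPM (-1.70), whereas Atf4 rose from 153 to 232 CPM (0.60). In the C-mycfl/fl mouse Psat1 rose at this step (1.06). With Gm10800 in the total, Slc7a1, the carrier of arginine and other cationic amino acids, rose in all 3 mice. Its log2 ratio was 0.91 in the TBGR, 0.80 in the C-mycfl/fl and 1.19 in the C-mycD/DCd4 mouse. Ftl1, the light chain of ferritin, rose in both C-myc mice (0.94 and 1.18). Leaving Gm10800 out lowers all ratios of this step in a mouse alike, for example that of Slc1a5 from 1.32 to 0.96 in the C-mycfl/fl mouse. This puts Slc7a1 and Ftl1 in the C-mycfl/fl mouse under 1.5-fold, and Atf4 in the C-mycD/DCd4 mouse. These 3 rises thus depend on Gm10800 in the total. In the TBGR mouse, from T-bet int to T-bet high cells, 22.3% of all genes fell. There 6 of 12 genes of amino acid shortage and synthesis fell, Psat1 (-2.09) and Phgdh (-1.40) among them. In the polyamine list 4 of 15 fell, close to the share of all genes, with the spermine synthase Sms (-1.26) and the antizyme inhibitor Azin1 (-1.14). The median of that list was 0.02 against -0.09 over all genes, so it did not fall as a whole. Fth1, the ferritin heavy chain that stores iron, rose from 415 to 813 CPM (0.97) at the step at which Tfrc fell.

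The genes most like 4 of the members over the 10 populations were sought among 2769 genes with at least 500 transcripts, by Pearson's r of log2(CPM + 10). The 10 populations share mice and libraries, so these are descriptions. Slc7a5 went with C1qbp (r = 0.973), Dtymk (0.960), Snrpf (0.954), Npm1 (0.953) and Rsl1d1 (0.951), and Srm with Phgdh (0.964), Npm1 (0.947), Tomm20 (0.946), C1qbp (0.936) and Rsl1d1 (0.922). Both lists hold Npm1, C1qbp and Rsl1d1, of which Npm1 and Rsl1d1 are proteins of the nucleolus. Odc1 went with Sae1 (0.918), Cct7 (0.893), Sdad1 (0.893), Atp2a2 (0.883) and Mrfap1 (0.870), and Tfrc with Manf (0.894), Slc25a4 (0.885), Pdlim1 (0.877), Dynll1 (0.870) and Psmb2 (0.848), with no gene shared by 2 of these lists beyond those of Slc7a5 and Srm. The sum of Slc7a5, Slc3a2, Slc1a5, Tfrc, Odc1 and Srm went most closely with Eif3g (0.95), Mrpl34 (0.932), Fam162a (0.920), Stra13 (0.890) and Spag7 (0.886).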

How the data were processed

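CEL-Seq2 libraries were made from single IELPs of 3 genotypes, 20 libraries of 96 cells. The authors aligned reads with BWA (0.6.2-r126) to the GENCODE VM9 transcripts and ERCC spike-ins, discarded reads that fit several loci, counted UMIs of 6 bases on the sense strand, and corrected these for repeated draws. The values deposited by the authors are thus estimated counts of transcripts per gene and cell, not normalized, with wells assigned to populations by the accompanying description. bcl2fastq (2.17.1.14) is named in the submitters' processing notes. The text that accompanies the data calls the sorted cells NK1.1+, whereas the study calls them NK1.1-, which is followed here.

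Here the estimated counts were rounded to whole numbers. Cells were kept at 2000 or more transcripts, as in the study, counted without spike-ins and mitochondrial genes. No such cell held over 2% of Kcnq1ot1. The study also removed genes correlated with Kcnq1ot1, a low-quality marker, and with 3 others, Gm10800 among them, which was not done here. Cells were sorted singly and no doublet caller was run. Ratios are log2 of CPM with 0.5 transcripts added to each sum, with intervals from the exact binomial split of both sums, and genes with at least 20 transcripts over both groups were counted. The members, the 5 pathway lists and the 10 marker lists were chosen with earlier results of these data known. All 10 members are named, and genes of the pathway lists are named with values where they passed the rule with at least 100 transcripts, at most 4 in each direction, with all called genes of a list of main interest given by name and Atf4 added after its value was seen. The calculations were tested on simulated data. Analyses used Python 3.11.15 with numpy 2.4.6, pandas 2.3.3, scipy 1.17.1 and matplotlib 3.10.9.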

Additional observations from a re-analysis of the deposited data

Results flagged for a closer look

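For each member, the 4 libraries of each C-mycfl/fl population were searched for 1 library far from the other 3 (40 sets of 4, of which chance alone would be expected to mark about 1 in 20). In 3 of them a library stood apart by Dixon's criterion. Slc7a5 was at 10.6 CPM in the fourth library of CD122+T-bet- cells and at 35.6 to 36.9 CPM in the others. Slc3a2 was at 203.6 CPM in the first library of CD122-T-bet- cells and at 69.8 to 85.4 CPM in the others. Srm was at 99.05 CPM in the third library of T-bet high cells and at 65.2 to 66.8 CPM in the others. Barcodes without a cell, which no comparison used, held 104 transcripts of the 10 members over all libraries, 2036 CPM of their own total, against 15999 transcripts in wells with a cell.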

How the results depend on the processing

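No paired analysis was possible because no test was run with 1 sample per genotype, and the replicate numbers follow the order of accession. Within the C-mycfl/fl mouse, whose libraries held 2 populations each, the mean of the ratios within libraries gave the same counts as the pooled ratios (2 and 3). The counts of members called are given as main value and alternative, and the cause of a move was not tested unless the setting itself makes it. All-gene counts moved with the settings too, so a move of a count is not read as particular to the members. At the CD122 step of the TBGR mouse, 2474 of 9262 genes rose in the main setting, 1639 relative to the median and 1278 of 5423 after thinning. For this step (5), the count of members was 2 relative to the all-gene median and with the trimmed mean of M values, 3 after thinning, 3 in cells without proliferation transcripts, 1 at 2-fold, and 3 to 8 with a library left out. With Gm10800 out of the total it was 3, and 2 with it out of the cell minimum too (both chosen after seeing the data). From CD122+T-bet- to T-bet int (0), it was 1 with the trimmed mean of M values, in cells without proliferation transcripts and in both settings without Gm10800, and 0 to 2 with a library left out. From T-bet int to T-bet high in the TBGR mouse (4), it was 2 in cells without proliferation transcripts, where Srm turned from -1.03 to 0.01826, and 2 at 2-fold. In the C-mycfl/fl mouse, the CD122 step (2) gave 4 with cells weighted equally and 2 to 4 with a library left out, and the step to T-bet high (3) gave 5 with cells weighted equally and 1 in cells without proliferation transcripts, at 2-fold, and with Gm10800 out of the total and the minimum. Between genotypes in CD122-T-bet- cells (1), it was 0 relative to the median, after thinning and at 2-fold, 0 to 2 with a library left out and 4 without libraries 2 and 4 (chosen after seeing the data). In CD122+T-bet- cells (5), it was 3 in cells with at least 3000 transcripts, without ribosomal protein genes in the total, after thinning and at 2-fold, 1 in cells without proliferation transcripts, and 3 to 7 with a library left out. The CD122 step of the C-mycD/DCd4 mouse (2 higher and 2 lower) had no count over 1.5 times apart from 4, but in cells without proliferation transcripts 6 were higher and 0 lower, with Srm at -0.92 and Slc7a5 at -0.07, and after thinning 4 were higher and 0 lower. Over all genes, 1982 of 4984 were higher and 225 lower in cells without proliferation transcripts. After thinning, 1039 of 3938 were higher and 346 lower. Between genotypes in CD122+T-bet- cells, 234 of 3924 genes were lower after thinning and 807 higher. Of 1370 member ratios under alternatives, 1302 moved by less than 1 SD between libraries, and 108 changed sign, 1 of them a called value. Depth limits Slc7a5 most, with 4 to 34 transcripts per population.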
